A study of Mus musculus with 12 samples.

Results

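The genes described here are the heat shock proteins and the J-domain chaperones of the mouse cortex. They were chosen by symbol: every entry of the deposited count table that begins with Dnaja, Dnajb or Dnajc and a number, or with Hspa, Hspb, Hspd, Hspe, Hsph or Hsp90, leaving out symbols that end in os, symbols that contain -ps, and Hspg2. This gave 75 of the 33024 symbols in the table, 30 beginning with Hsp and 45 with Dnaj. The rule reads symbols only and no measured value. RNA was sequenced from the cortex of 12 C57BL/6 mice of the second treatment arm, 7 in the Control group and 5 in the EtOH group. EtOH mice could choose between water and 20% (v/v) ethanol under the 2BC-DID paradigm, a binge-like model in which a bottle of ethanol is offered beside the water bottle for a limited time that starts in the dark phase, on 35 days from an age of 30 days. Control mice had water in both bottles over the same time, and 14 days without ethanol followed in both groups. Mice of this arm then went through behavioural tests, a water maze and swimming among them, before tissue was taken, so that the tissue is from tested animals and later than those 14 days. The drinking was voluntary, and the amount taken by each sequenced mouse was not used here. Each sample is a piece of bulk tissue, so that fewer cells of a type and less RNA per cell cannot be told apart in any value below.

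Molecular chaperones help other proteins to fold, to reach their compartment and to be taken apart when damaged. HSP70 proteins bind unfolded stretches in a cycle driven by ATP, J-domain proteins bring them their clients and start ATP hydrolysis, and nucleotide exchange factors such as HSP110 release the client. HSP90 proteins act later, on nearly folded kinases and steroid receptors, small heat shock proteins hold aggregating proteins without using ATP, and the HSP60 and HSP10 chaperonin folds proteins inside mitochondria. In neurons the same machinery also uncoats clathrin vesicles and keeps synaptic vesicle proteins in shape.

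The libraries held between 31768076 and 42183029 counts. Levels are given as CPM, the counts of a gene relative to the scaled library total, and 3 counts corresponded to between 0.0695 and 0.0962 CPM. The chaperone genes held 0.840% ± 0.0563 of all counts in Control (SD, n = 7, range 0.747% to 0.914%) and 0.805% ± 0.0295 in EtOH (SD, n = 5, range 0.776% to 0.852%), so that the groups overlapped. The makeup of the tissue was not alike in both groups. All 12 striatal marker genes were lower in EtOH (summed level 1002 to 2402 CPM in Control, 236 to 305 CPM in EtOH, with Isl1 at 0 in at least 1 library), and all 9 hippocampal marker genes were higher (34.2 to 41.7 against 146 to 193 CPM, with Iyd at 0 in at least 1 library). All 8 oligodendrocyte markers and 5 of 7 microglial markers were lower, 3 of 6 astrocyte markers were higher, and of 7 neuronal markers 1 was higher and 4 were lower. Of 5 tested choroid plexus markers 4 were higher (7.57 to 21.3 against 11.6 to 990 CPM), and of 6 immediate early genes 2 were higher. No marker of endothelium, mural cells, ependyma (Tmem212 and Dynlrb2 at 0 in at least 1 library) or blood passed the test. The part of these differences in the results below was not tested.

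Expressed per kb of annotated exon (the union of all transcripts of a gene), the cytosolic chaperones stood highest. This union can be longer than the transcripts present, so the order of genes depends on the annotation. In CPM the order in Control differed, with Hspa8 (1555) above Hsp90ab1 (1432). Likewise, Dnajc5 (378) and Dnajc6 (356) were above Dnaja2 (165) in CPM. Hsp90ab1, the constitutive cytosolic HSP90, was at 265 ± 21.5 CPM per kb in Control (SD, n = 7). Hspa8, the constitutive cytosolic HSP70 that strips clathrin from vesicles, was at 179 ± 25.9 CPM per kb, and Hsp90aa1, the HSP90 form that also responds to stress, was at 152 ± 13.4 CPM per kb. The spread of Hspa8 and that of Hsp90aa1 reached into each other, while Hsp90ab1 stood apart from both on this scale. Among J-domain genes, Dnaja2, a cytosolic partner of HSP70, led with 49.0 CPM per kb. It was followed by Dnajc6 (auxilin, which brings HSP70 to clathrin coats) at 40.7 CPM per kb, Dnajc5 (cysteine string protein of synaptic vesicles) at 34.7 CPM per kb and Dnajb5 at 34.3 CPM per kb. In the endoplasmic reticulum (ER), Hspa5 (BiP) and Hsp90b1 (GRP94) were at 35.4 and 32.3 CPM per kb, and the mitochondrial HSP70 Hspa9 was at 37.2 CPM per kb. The strictly inducible HSP70 genes were listed low, Hspa1a at 1.22 and Hspa1b at 2.18 CPM per kb in Control. They are near copies of each other, and how reads that match both were counted is not given in the sources used here, so that both levels would be too low if such reads were dropped.

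**Figure D1:**
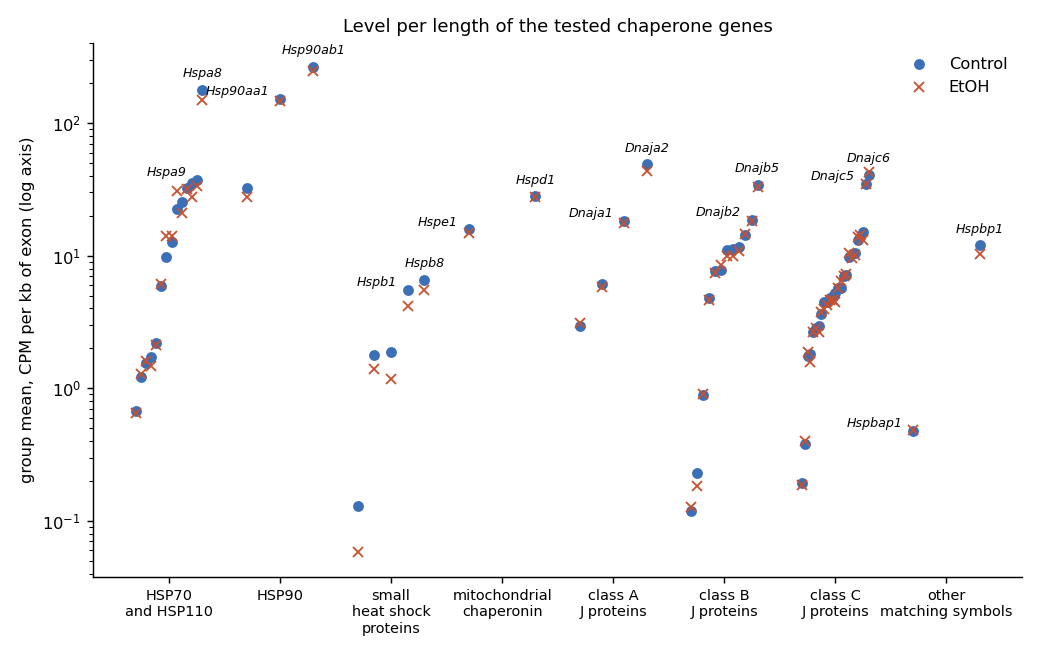
Group mean level of the tested chaperone genes in CPM per kb of exon (log axis), by family, with circles for Control (7 mice) and crosses for EtOH (5 mice) and the highest genes of each family named. Hspb11, which has no annotated length under that symbol, is not drawn. Hsp90ab1, Hspa8 and Hsp90aa1 stand above all other members, at 265, 179 and 152 CPM per kb in Control.

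Variation between mice of a group differed widely among the members. In Control, Dnajc18 varied least, with a coefficient of variation of 2.21%, followed by Dnajc11 (2.68%), Dnajc27 (3.04%) and Dnajc5 (3.11%). Of the members above 5 CPM, Hspa5 varied most (21.5%), then Hspb1 (20.9%) and Hspb8 (19.5%). The widest spreads belonged to genes close to the counting floor, such as Dnajb13 (63.7%) at a mean of 0.425 CPM.

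The study compared EtOH with Control after abstinence to find changes that last beyond the drinking period. The expression filter left 69 of the 75 members among 16059 genes tested. Most chaperone genes showed no change that passed the test, and those that did mostly fell by less than 20% of their level. At an adjusted p under 0.05, 2 members were higher in EtOH, 2.90% of those tested against 12.1% of all genes, and 7 were lower, 10.1% against 11.6% of all genes. With a log2 fold change above 0.5 as well, 1 member was higher (1.45%, against 4.2% of all genes) and 2 were lower (2.90%, against 4.09%). Every EtOH mouse lay above every Control mouse for 1 member (1.45%, against 4.84% of all genes), and below every Control mouse for 0 members, against 4.96% of all genes. The share of called members was thus near or under that of all genes in each direction in the main fit. The number called lower depended on single mice and ranged from 3 to 13 when 1 mouse was left out. The log2 fold changes of the members were small, with a median of -0.05 and an interquartile range from -0.17 to 0.04. They were negative in 44 of 69 members, beside 8028 of 16059 genes tested, whose median was 7.21e-05. Only 4 of 69 members moved by more than 0.5 on the log2 scale (5.80%), beside 1935 of 16059 genes.

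**Figure D2:**
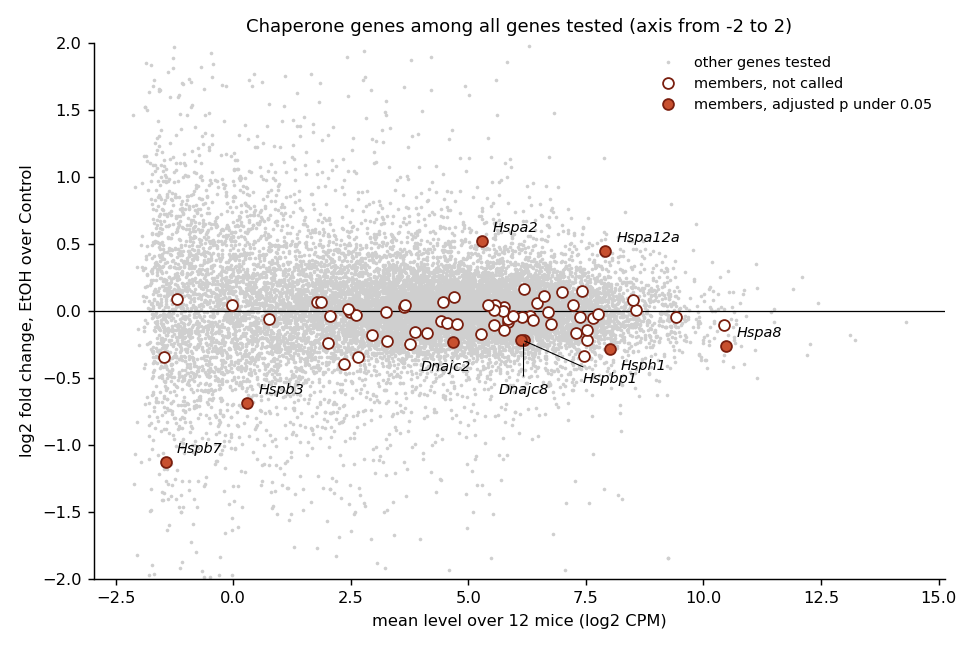
Log2 fold change of EtOH over Control against mean level over 12 mice (log2 CPM) for all genes tested (grey dots, 139 beyond the axis not drawn) and 68 of the 69 tested members (circles, filled where adjusted p was under 0.05). Most members lie within the grey band around 0, and the lowest filled circle, Hspb7 at -1.13, is also among the least abundant.

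The Hsp and Dnaj genes differed in how far they spread around 0. Of 28 tested Hsp symbols, 2 were higher and 5 lower, with a median log2 fold change of -0.10 and a median size of 0.22. Of 41 tested Dnaj symbols, 0 were higher and 2 lower, with a median of -0.04 and a median size of 0.07. Only 1 Dnaj gene, the weakly expressed Dnajb7 (-0.34 ± 0.35, SE, adjusted p = 0.512), exceeded 0.25 in size, against 10 Hsp genes. Of all genes tested, 4993 of 16059 exceeded 0.25, and the median size was 0.15. The share called was 25% of the Hsp symbols and 4.88% of the Dnaj symbols, beside 23.7% of all genes. Whether these families differ was not tested.

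**Figure D3:**
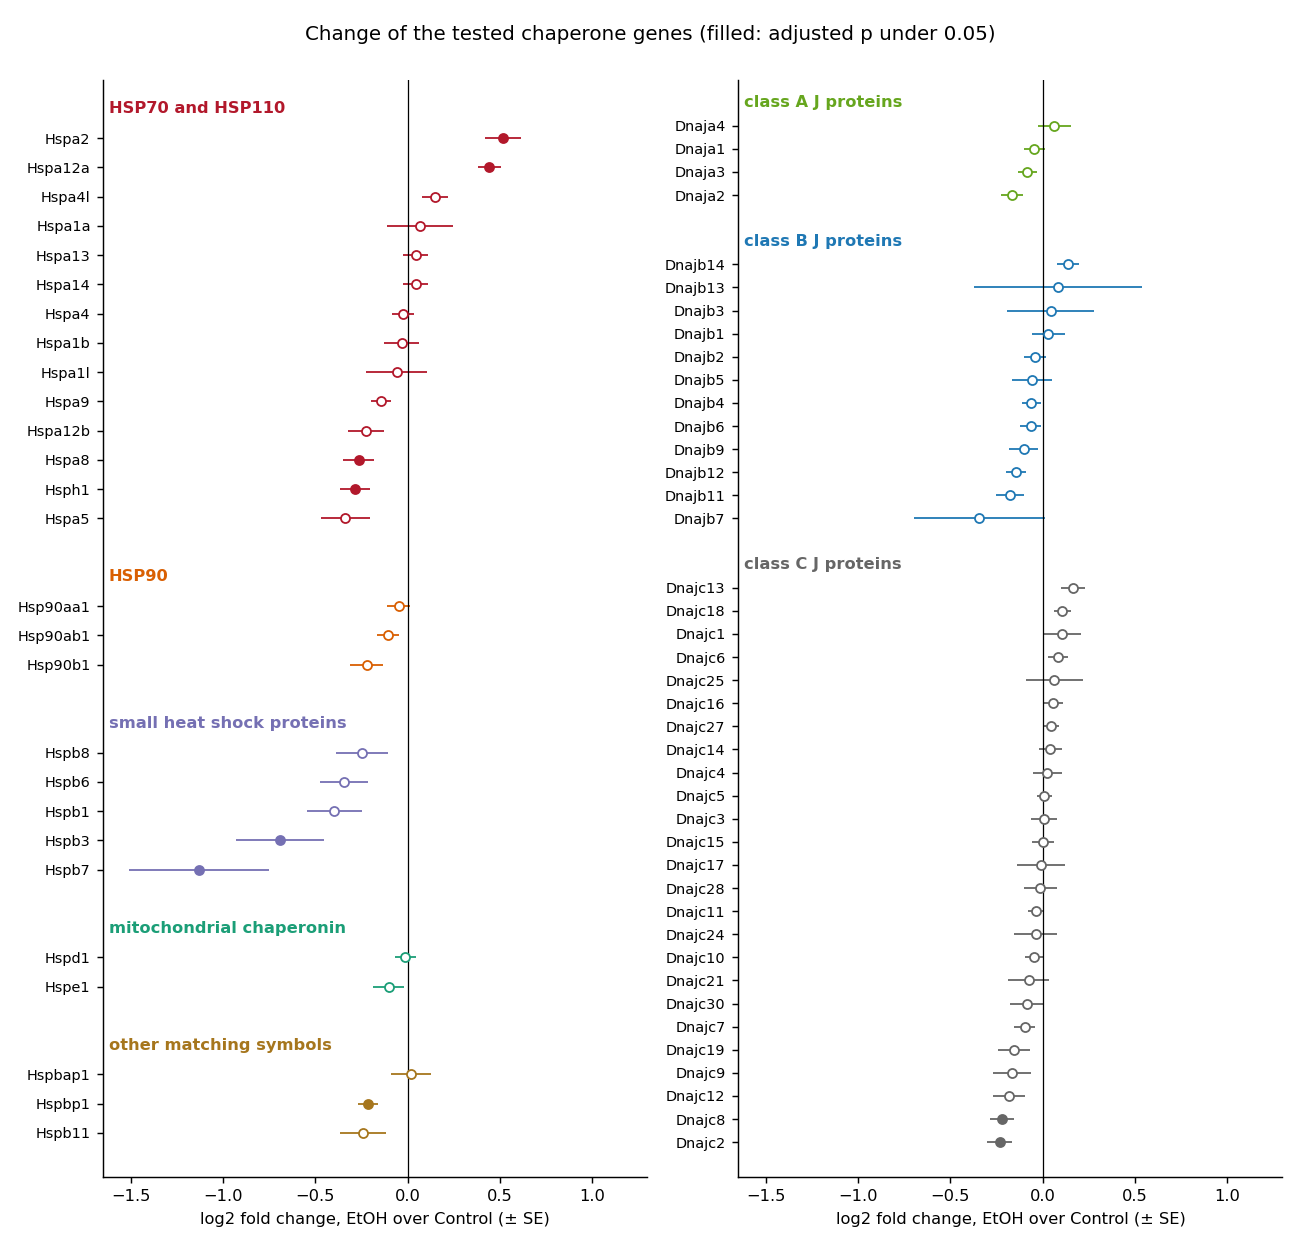
Log2 fold change of EtOH over Control with its standard error for 68 of the 69 tested members, grouped by family and sorted within it, with filled circles where adjusted p was under 0.05. In the HSP70 and HSP110 family Hspa2 and Hspa12a sit at 0.52 and 0.44, while all 3 genes with Hsp90 symbols and all 5 tested small heat shock proteins lie below 0.

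In the HSP70 and HSP110 family, 2 of 14 genes rose and 2 fell, beside 12.1% and 11.6% of all genes. Together 28.6% of the family was called, beside 23.7% of all genes. These shares of all genes apply to the counts of each family and member list that follows. Hspa12a, a distant HSP70 relative that is abundant in brain, lies on the minus strand at chr19:58784181-58932086 (GRCm39). Its level in Control was 192 CPM in the lowest mouse, 210.0 at the median and 243 in the highest. The EtOH mice had 304, 264, 299, 303 and 279 CPM. No EtOH mouse fell into the Control range, which held for no other member. The Control mean of 213 ± 18.4 CPM and the EtOH mean of 289.9 ± 17.6 CPM (SD, n = 7 and 5) differed by 35.9%, or 0.44 ± 0.06 on the log2 scale (SE, adjusted p = 6.59e-05). It passed the test in all 12 fits that left out 1 mouse.

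Hspa2, an HSP70 best known from testis and also found in brain, lies at chr12:76450151-76453712 on the plus strand. The Control mice had 28.6 CPM at the lowest, 33.2 at the median and 38.9 at the highest. The EtOH mice had 55.5, 38.3, 49.7, 54.7 and 43.3 CPM. Of the 5 EtOH mice, 4 were above every Control mouse, and EtOH 2 lay just under Control 5 (38.9 CPM) and Control 7 (38.8 CPM). Group means were 33.7 ± 4.10 CPM in Control and 48.3 ± 7.40 CPM in EtOH (SD, n = 7 and 5), with a log2 fold change of 0.52 ± 0.10 (SE, adjusted p = 0.000957). This was the only member that rose by more than 0.5, and it was past that size in 7 of the 12 fits without 1 mouse, falling to 0.47 at the lowest. Exons of Hspa2 overlap the opposite-strand gene 4930426I24Rik, and those of Hspa12a overlap Eno4 and Gm56672, so that reads there could belong to either gene if the counting ignored strand. Hippocampal and astrocytic markers were higher in the same EtOH mice (above), and the part of that difference in either value was not tested.

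The genes of the family that fell, Hspa8 and Hsph1, work together on cytosolic clients. Hspa8 lies at chr9:40711630-40731039 on the plus strand and holds 3 small nucleolar RNA genes in its transcribed region. Its Control levels were 1256 CPM at the lowest, 1649 at the median and 1827 at the highest. The EtOH mice had 1296, 1232, 1235, 1343 and 1364 CPM. Control mice 1 to 4 were at 1649 to 1827 CPM, well above all EtOH mice, whereas Control 5 (1365 CPM), Control 6 (1256 CPM) and Control 7 (1352 CPM) were level with the EtOH group. The mean fell by 16.8%, from 1555 ± 224 to 1294 ± 60.4 CPM (SD, n = 7 and 5), with a log2 fold change of -0.27 ± 0.08 (SE, adjusted p = 0.0308). This call rested on single mice: it was lost without Control 1, 2, 3 or 4 and without EtOH 1, 2 or 3, with adjusted p up to 0.0741.

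Hsph1, the HSP110 that exchanges nucleotide on HSP70, is at chr5:149537636-149560156 on the minus strand. Control mice had 223 CPM at the lowest, 280.0 at the median and 326 at the highest. EtOH mice had 245, 228, 219, 239 and 231 CPM. Of 7 Control mice, 6 were above every EtOH mouse, and Control 6 was inside the EtOH range. The mean fell by 17.8%, from 283 ± 38.3 to 232 ± 10.2 CPM (SD, n = 7 and 5), with a log2 fold change of -0.28 ± 0.08 (SE, adjusted p = 0.0180). The call held in all 12 fits without 1 mouse.

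Hspbp1, which like HSP110 speeds nucleotide exchange on HSP70, was grouped with the other matching symbols because it is not itself a heat shock protein. It lies at chr7:4663512-4688834 on the minus strand and shares exon sequence with Ppp6r1 on the same strand. Control mice ranged from 70.2 over 74.1 to 80.7 CPM (lowest, median, highest), and EtOH mice had 61.2, 59.95, 62.9, 65.99 and 70.3 CPM. EtOH 5 was level with the lowest Control mouse, and the other 4 were below all of them. Hspbp1 fell by 13.9%, from 74.4 ± 3.76 to 64.1 ± 4.17 CPM (SD, n = 7 and 5), with a log2 fold change of -0.22 ± 0.05 (SE, adjusted p = 0.00859), and was called in all 12 fits without 1 mouse. Of the remaining members with matching symbols, Hspbap1 was at 0.02 ± 0.11 and Hspb11 at -0.24 ± 0.12 (log2 fold change, SE, adjusted p = 0.932 and 0.171).

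**Figure D4:**
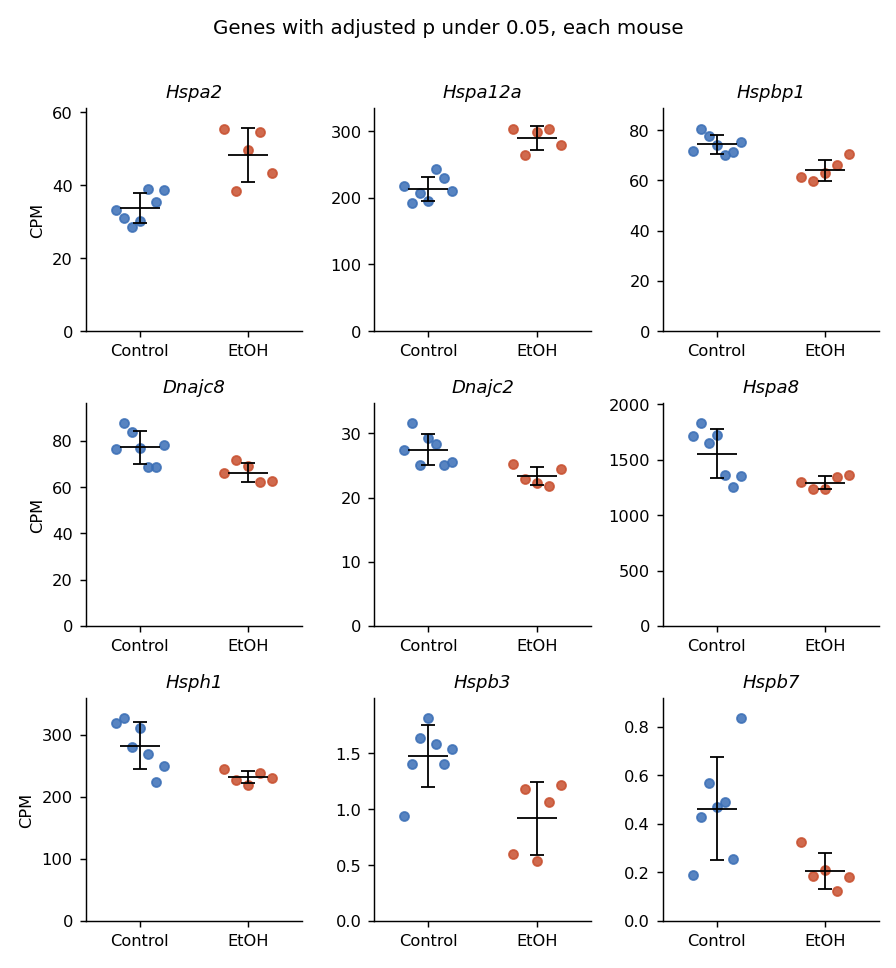
Level in CPM of each mouse (points), with group mean and SD (black), for the 9 members with adjusted p under 0.05. Each axis starts at 0. Only for Hspa12a do the groups not overlap. In Hspa8, 3 of the 7 Control mice lie level with EtOH, at 1256 to 1365 CPM.

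Low values in Control 5 and Control 6, seen in Hspa8, recurred in several other chaperones, as the ratio of each mouse to the Control mean shows. Control 7, low in Hspa8, was also below the Control mean in Hsph1, Hsp90b1 and Hspe1, but above it in Hspa5 and Hspb8. Hspa5 was at 240.2, 245, 181, 213, 138, 148 and 209 CPM in Control 1 to 7, and Hsp90b1 at 225, 228, 195, 222, 171, 155 and 187 CPM. Control 5 and Control 6 were the lowest of their group for both, and for Hspe1 and Hspb8 as well. The summed level of the 6 immediate early genes, which mark recent neuronal activity, was 993, 596, 795, 697, 1360, 1040 and 1548 CPM in the same mice. The summed level of the 12 striatal markers was 1849, 2402, 1580, 1951, 1480, 1996 and 1002 CPM. The part of either in the spread among Control mice was not tested.

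**Figure D5:**
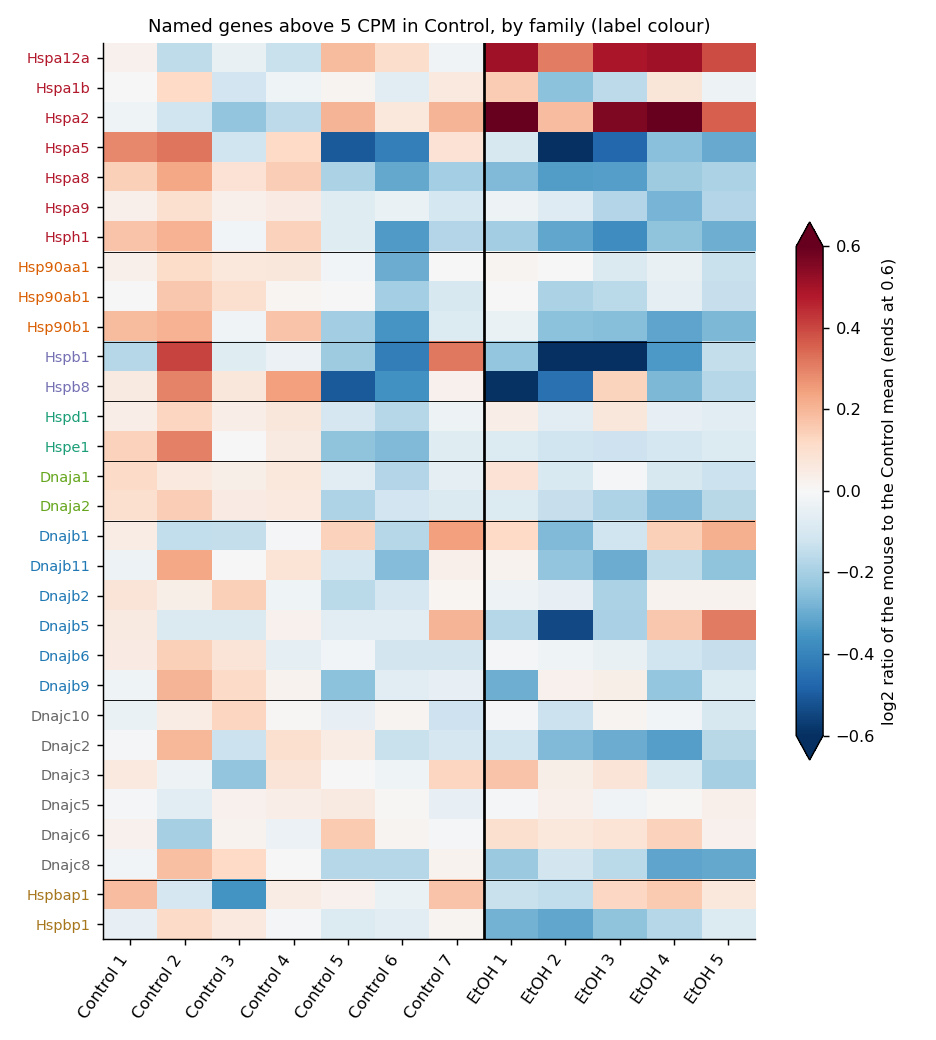
Log2 ratio of each mouse to the Control mean for the named members above 5 CPM in Control. Each line is a gene, label colours mark families, the vertical line separates 7 Control from 5 EtOH mice, and the colour scale ends at 0.6 in size. Hspa12a and Hspa2 are red in the EtOH mice, while Hspa5, Hspa8, Hsph1 and Hsp90b1 are blue there and also in Control 6.

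Heat shock factor 1 switches on inducible chaperone genes when unfolded protein gathers. A list of 9 cytosolic and mitochondrial members of this response, which also holds genes with a high constitutive level such as Hspa8, included no gene that passed the test as higher. Among all genes, 12.1% were higher. Of the 9, 2 were lower (22.2%, beside 11.6% of all genes), namely Hspa8, named above as constitutive, and Hsph1. Fold changes were negative in 7 of 9 (77.8%, beside 50.0% of all genes). Hspa1a, the classic inducible HSP70, had 2.87 to 4.75 CPM in Control and 5.26, 3.08, 2.62, 3.13 and 4.83 CPM in EtOH. Its near copy Hspa1b had 5.65 to 6.65 CPM in Control and 6.79, 5.16, 5.49, 6.43 and 5.99 CPM in EtOH. In both genes EtOH mice lay above as well as below the Control range, 2 above and 1 below for Hspa1a and 1 above and 2 below for Hspa1b, with log2 fold changes of 0.07 ± 0.18 and -0.03 ± 0.09 (SE, adjusted p = 0.817 and 0.828). Their coding sequences are identical at 1915 of 1926 aligned positions (99.4%), so that how reads were divided between them is uncertain. Dnajb1, the inducible HSP40 that works with them, was at 54.0 ± 6.09 CPM in Control and 55.1 ± 7.46 CPM in EtOH (SD, n = 7 and 5, log2 fold change 0.03 ± 0.09, SE, adjusted p = 0.841). Hsp90aa1 was at -0.05 ± 0.06 on the log2 scale (SE, adjusted p = 0.610).

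Heat shock factors bind inverted repeats of a 5-base unit, the heat shock element. A core of 2 such units in either arrangement, GAANNTTC or TTCNNGAA, was looked for in the 250 bases before the start of the canonical transcript, where each of these letter strings equals its own reverse complement and so covers both strands. It occurred in 13 of 74 members (17.6%), beside 12.3% of 21770 protein-coding promoters of the same length. The 13 hold Hspd1 and Hspe1, whose windows overlap, and Hspa1a and Hspa1b, whose windows are alike at 247 of 250 bases. In each of these pairs nearly the same letters were counted for both genes, which raises the share of the members. A run of 3 alternating units, which contains overlapping 2-unit cores, occurred in 2 members, Hspd1 and Hspe1, whose starts face each other on chromosome 1 (2.70%, beside 0.349% of all promoters). The windows of this pair overlap, and the run is the same stretch read from either strand, so that a single site was counted for both. The holders of a 2-unit core were Dnaja1, Dnajc5b, Dnajc6, Dnajc10, Dnajc27, Dnajc30, Hspa1a, Hspa1b, Hspb1, Hspb3, Hspd1, Hspe1 and Hsph1. Of these 13, 2 were lower (Hspb3 and Hsph1), 10 were not called and 1 was not tested. Of the 61 without it, 2 were higher, 5 lower, 49 not called and 5 not tested. A match describes letters only, and its absence says nothing of the factor. The inducible pair, the small heat shock protein Hspb1 and, as the member whose groups did not overlap, Hspa12a are shown 5′ to 3′ with 2-unit cores in capitals (GRCm39, the last base being next to the transcript start).
Hspa1a, chr17:35191133-35191382, minus strand: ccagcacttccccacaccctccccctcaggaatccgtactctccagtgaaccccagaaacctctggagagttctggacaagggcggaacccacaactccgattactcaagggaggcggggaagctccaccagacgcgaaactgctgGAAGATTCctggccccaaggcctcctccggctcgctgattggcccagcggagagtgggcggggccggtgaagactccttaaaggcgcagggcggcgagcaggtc
Hspa1b, chr17:35178215-35178464, minus strand: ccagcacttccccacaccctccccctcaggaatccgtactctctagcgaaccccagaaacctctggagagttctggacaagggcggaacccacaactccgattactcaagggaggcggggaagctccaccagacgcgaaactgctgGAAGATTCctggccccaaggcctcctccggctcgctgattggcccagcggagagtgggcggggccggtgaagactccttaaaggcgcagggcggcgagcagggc
Hspb1, chr5:135916510-135916759, plus strand: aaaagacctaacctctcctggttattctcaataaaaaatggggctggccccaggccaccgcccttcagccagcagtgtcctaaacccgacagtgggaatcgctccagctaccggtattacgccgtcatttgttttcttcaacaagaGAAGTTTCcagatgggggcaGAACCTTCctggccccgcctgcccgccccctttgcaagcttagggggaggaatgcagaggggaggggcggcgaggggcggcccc
Hspa12a, chr19:58849519-58849768, minus strand: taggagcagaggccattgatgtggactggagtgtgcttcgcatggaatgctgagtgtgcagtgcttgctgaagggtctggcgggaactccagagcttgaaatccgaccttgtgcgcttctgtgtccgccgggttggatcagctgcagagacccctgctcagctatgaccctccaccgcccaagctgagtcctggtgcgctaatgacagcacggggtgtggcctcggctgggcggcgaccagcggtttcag
The windows of Hspa1a and Hspa1b are alike at 247 of 250 bases and carry 1 core each, ending 96 bases before the start. Hspb1 carries 2 cores, the nearer ending 76 bases before the start. The window of Hspa12a, which lies inside a longer transcript of the same gene, carries 0.

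None of the 3 genes with Hsp90 symbols passed the test, and all had negative fold changes. Trap1, an HSP90 relative whose symbol the choice did not cover, was at 0.05 ± 0.05 (log2 fold change, SE, adjusted p = 0.467). Hsp90ab1 was at 1432 ± 116 CPM in Control and 1329.9 ± 72.9 CPM in EtOH (SD, n = 7 and 5, log2 fold change -0.11 ± 0.06, SE, adjusted p = 0.207). Hsp90b1, the HSP90 of the ER, was at 198 ± 28.9 and 169 ± 13.2 CPM (SD, n = 7 and 5, log2 fold change -0.22 ± 0.09, SE, adjusted p = 0.0812).

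The ER members handle secretory and membrane proteins and mark the unfolded protein response. Of 6 listed, 0 passed the test and 5 had negative fold changes (83.3%, beside 50.0% of all genes). Hspa5, the ER HSP70, had the largest difference of them. EtOH mice had 184, 126, 142, 165 and 159 CPM, and the Control values given above spanned 138 to 245 CPM. Control mice 1, 2, 4 and 7 were above every EtOH mouse, and the other 3 lay among them. The mean was 196 ± 42.3 in Control and 155 ± 22.2 CPM in EtOH (SD, n = 7 and 5, log2 fold change -0.34 ± 0.13, SE, adjusted p = 0.0725). Without Control 5 or without Control 6, Hspa5 and Hsp90b1 both passed the threshold, with adjusted p as low as 0.0140 and 0.0188. Both also passed it without the deepest library of each group and with the replicate number as a block. The J-domain partners of BiP stood at -0.18 ± 0.08 for Dnajb11 (adjusted p = 0.105) and -0.10 ± 0.08 for Dnajb9 (adjusted p = 0.358). The corresponding values were -0.05 ± 0.05 for the disulphide reductase Dnajc10 (adjusted p = 0.563) and 0.00 ± 0.07 for Dnajc3 (adjusted p = 0.970), all as log2 fold change with SE.

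All 5 small heat shock proteins that were tested had lower means in EtOH, beside 50.0% of all genes with a negative fold change. Their median log2 fold change was -0.40, and 2 of them passed the test (40%, beside 11.6% of all genes called lower). Hspb3, a muscle-type member (chr13:113799432-113800212, minus strand), had 0.939, 1.54 and 1.81 CPM as lowest, median and highest Control values. The EtOH mice had 0.603, 1.18, 0.537, 1.06 and 1.22 CPM. Control 1 was inside the EtOH range, and the other 6 Control mice were above every EtOH mouse. The log2 fold change was -0.69 ± 0.24 (SE, adjusted p = 0.0446), from 18 to 65 counts per mouse. Hspb7, which is strongest in heart (chr4:141148090-141152625, plus strand), had 0.188, 0.469 and 0.834 CPM in Control and 0.325, 0.187, 0.209, 0.121 and 0.182 CPM in EtOH. Control 1 and Control 6 lay within the EtOH range. Its log2 fold change of -1.13 ± 0.38 (SE, adjusted p = 0.0394) came from 4 to 26 counts per mouse. These were the only members past both thresholds in the lower direction, and neither was stable: Hspb3 passed in 3 and Hspb7 in 4 of the 12 fits without 1 mouse.

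The better expressed small heat shock proteins did not pass the main test. Hspb1 (HSP27) had 4.34, 5.49 and 7.66 CPM as lowest, median and highest Control values and 4.91, 3.36, 3.82, 4.55 and 5.23 CPM in EtOH, so that the groups overlapped (log2 fold change -0.40 ± 0.15, SE, adjusted p = 0.0654). Hspb6 was at -0.35 ± 0.13 (adjusted p = 0.0660) and Hspb8, which acts in autophagy of misfolded proteins, at -0.25 ± 0.14 (adjusted p = 0.218). Hspb1 and Hspb6 lay close to the threshold, since both passed it with DESeq2 (adjusted p = 0.0476 and 0.0493) and in 2 of the 12 fits without 1 mouse each. Cryab, the αB-crystallin of oligodendrocytes and astrocytes, is a small heat shock protein whose symbol the choice did not cover. It fell from 93.0 to 66.4 CPM (log2 fold change -0.48 ± 0.11, SE, adjusted p = 0.00324) and kept its call in all 12 fits without 1 mouse. The 8 oligodendrocyte markers fell in the same comparison, from a summed 4587 to 6077 CPM in Control to 3069 to 5467 CPM in EtOH. The part of that in the small heat shock proteins was not tested.

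Neither Hspd1 nor Hspe1, the paired genes of the mitochondrial chaperonin, passed the test. Hspd1 (HSP60) was at 105 ± 7.47 CPM in Control and 104 ± 4.67 CPM in EtOH (SD, n = 7 and 5, log2 fold change -0.01 ± 0.06, SE, adjusted p = 0.900). Its partner Hspe1 (HSP10) was at 28.1 ± 4.00 and 26.2 ± 0.358 CPM (log2 fold change -0.10 ± 0.08, SE, adjusted p = 0.407). Hspa9, which pulls proteins into mitochondria, was at 191 ± 9.46 and 173 ± 11.5 CPM (SD, n = 7 and 5, log2 fold change -0.14 ± 0.05, SE, adjusted p = 0.0588). Hspa9 passed the threshold with DESeq2 (adjusted p = 0.0419), without the deepest library of each group (0.0261) and in 4 of the 12 fits without 1 mouse.

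Among the J-domain proteins, no member of class A (4 tested) or class B (12 tested) passed the test. In class C, 2 of 25 were lower (8%, beside 11.6% of all genes). Dnajc2, which works with HSP70 at the ribosome (chr5:21962264-21990249, minus strand), had 25.0, 27.3 and 31.5 CPM as lowest, median and highest Control values and 25.2, 22.9, 22.3, 21.8 and 24.4 CPM in EtOH. EtOH 1 alone reached the Control range. The mean fell by 14.9%, with a log2 fold change of -0.23 ± 0.07 (SE, adjusted p = 0.0215), and the call was lost without EtOH 3 or EtOH 4. Dnajc8, a spliceosome-associated J protein (chr4:132262846-132281061, plus strand), had 68.6, 77.0 and 87.5 CPM in Control and 66.2, 71.5, 69.1, 62.0 and 62.5 CPM in EtOH. EtOH 2 and EtOH 3 lay above Control 5 and Control 6. The mean fell by 14.2%, with a log2 fold change of -0.22 ± 0.07 (SE, adjusted p = 0.0227), and the call was lost without EtOH 1, 4 or 5. Dnajc2 overlaps the opposite-strand gene Pmpcb, and Dnajc8 overlaps Gm24762.

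None of the J-domain genes of neurons and synapses passed the test. Dnajc5 was at 378 ± 11.8 CPM in Control and 381 ± 6.02 CPM in EtOH (SD, n = 7 and 5, log2 fold change 0.01 ± 0.04, SE, adjusted p = 0.907). Dnajc6 was at 356 ± 25.6 and 377 ± 10.6 CPM (log2 fold change 0.08 ± 0.05, SE, adjusted p = 0.293). Dnajb2 and Dnajb6, both suppressors of protein aggregation, were at -0.04 ± 0.06 and -0.07 ± 0.05 (log2 fold change, SE, adjusted p = 0.632 and 0.407). With Hspa12a, 1 of the 6 neuronal members rose (16.7%, beside 12.1% of all genes) and 0 fell (beside 11.6%).

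Dnajb5 was the abundant J-domain gene with the widest spread among EtOH mice. They had 183, 141, 180, 230.0 and 255 CPM, a coefficient of variation of 22.7%, against 7.65% in Control (194 to 236 CPM). EtOH 1, 2 and 3 were below and EtOH 5 was above every Control mouse, and the difference of the means missed the threshold (log2 fold change -0.06 ± 0.11, SE, adjusted p = 0.746). The summed immediate early genes were at 751, 735, 1362, 1740 and 2160 CPM in EtOH 1 to 5, and Dnajb5 was likewise highest in EtOH 5 and lowest in EtOH 2. Control 7 also had both the highest sum (1548 CPM) and the highest Dnajb5 (236 CPM) of its group. The order did not hold throughout. EtOH 1 and EtOH 3 were alike in Dnajb5. Control 5 had a sum of 1360 CPM and 196 CPM of Dnajb5, and Control 1 had 993 and 213 CPM. The part of these genes in the Dnajb5 values was not tested. In class A, Dnaja2 stood at -0.17 ± 0.06 (adjusted p = 0.0570) and Dnaja1 at -0.05 ± 0.06 (adjusted p = 0.5998), as log2 fold change with SE. Dnaja2 passed the threshold with DESeq2, with the replicate number as a block, without the deepest library of each group, and without Control 5 or Control 6.

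The expression filter removed 6 members. Dnajc5g had 0 counts in all 12 mice, which allows at most 0.0962 CPM in any of them (3 counts, counting error only). Dnajc22 and Dnajc5b reached 2 counts in a mouse at most and were at 0 in 8 of 12 mice each, Dnajb8 reached 9 counts, Hspb2 reached 9 and Hspb9 reached 15. Dnajb8 and Hspb9 are known from testis and Hspb2 from muscle.

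The partners of these chaperones were taken as further lists of 65 genes, of which 61 were tested, 2 were higher and 11 lower. The share called higher was 3.28%, beside 12.1% of all genes, and the share called lower was 18.03%, beside 11.6% of all genes. Their median log2 fold change was -0.07, with 43 of 61 negative. The same shares of all genes apply to the counts of each list that follows. Among the nucleotide exchange factors and other HSP70 partners, 1 of 13 was higher and 3 were lower. Bag5, a BAG-domain partner of HSP70, fell from 37.9 to 28.9 CPM (log2 fold change -0.39 ± 0.07, SE, adjusted p = 0.000523), with all 5 EtOH mice below every Control mouse. Bag2, which inhibits the ubiquitin ligase of HSP70, rose from 6.89 to 9.10 CPM (0.40 ± 0.09, adjusted p = 0.00345), with all 5 EtOH mice above every Control mouse. The others that fell were Bag1 (-0.27 ± 0.08, adjusted p = 0.0182) and Dnlz (-0.34 ± 0.06, adjusted p = 0.000916), an escort of mitochondrial HSP70.

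Of 24 genes listed as HSP90 co-chaperones, among them the HSP90 relative Trap1, 1 was higher and 5 were lower. Stip1, which joins HSP70 to HSP90, fell from 169.9 to 144 CPM (log2 fold change -0.24 ± 0.08, SE, adjusted p = 0.0312), and Tomm70a, the mitochondrial import receptor for chaperone-bound proteins, fell from 209 to 165 CPM (-0.34 ± 0.07, adjusted p = 0.00132). Nudc (-0.31 ± 0.08), the kinase adaptor Cdc37 (-0.19 ± 0.06) and the steroid receptor partner Fkbp4 (-0.19 ± 0.07) fell too, with adjusted p of 0.00830, 0.0393 and 0.0470. Stip1, Cdc37 and Fkbp4 kept their calls in only 5, 4 and 5 of the 12 fits without 1 mouse. Ahsa2, related to the activator of the HSP90 ATPase, rose from 10.6 to 13.3 CPM (0.33 ± 0.09, adjusted p = 0.0116). In the TRiC and prefoldin list, which folds actin and tubulin, Pfdn2 fell (-0.30 ± 0.09, adjusted p = 0.0188) and 13 of 14 tested genes were not called. Of the 5 tested genes of the heat shock factor list, only Hsbp1, a binding partner of the factors, was lower (-0.18 ± 0.06, adjusted p = 0.0470), a call kept in 4 of the 12 fits without 1 mouse, and Hsf1 itself was at -0.05 ± 0.06 (adjusted p = 0.620). None of 4 tested J-domain genes with other symbols, such as auxilin's relative Gak and the ER translocon gene Sec63, passed the test.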

How the data were processed

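RNA of 12 cortex samples was extracted and sequenced by BGI. The authors checked reads with FastQC 0.11.9, aligned them to GRCm39 with STAR and counted them on Gencode Release 28 genes with featureCounts. They deposited expected counts per gene symbol without normalization, in which 61 symbols hold values that are not whole (Hspa14 among the members), for a reason not given in the sources used here, nor are the strand and multi-mapping settings. In Gencode M39, which is not the release used for counting, 51 of 75 members share exon sequence with another gene. Of these, 9 do so on the same strand. Depending on those settings, reads there could have been counted for either gene or dropped. The counts were rounded, filtered with filterByExpr, scaled with TMM factors and compared with edgeR's quasi-likelihood test (R 4.3.3, edgeR 4.0.16), with Benjamini-Hochberg adjustment over all 16059 genes tested. The test was tried on simulated data. CPM values use TMM-scaled totals. The SE is the log2 fold change divided by the square root of F. Floors cover counting error only. The labels number the samples without naming animals, so p-values measure the spread between these samples.

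Named are members with adjusted p under 0.05 or groups that do not overlap, the 2 highest per length of each family, fixed lists of stress-inducible, ER and neuronal members, and untested members. 1 tested member is not reported here and is counted in the totals only. The rule for members reads symbols only, but these gene families and the lists were chosen with earlier results of these data known. Alternatives were DESeq2 1.42.0, limma 3.58.1 voom, other factors and filters, the replicate number as a block, and leaving out mice. Positions and lengths are from Gencode M39 (GRCm39), where 74 of 75 members had 1 gene of that symbol. No 2 libraries of a group were as alike as sampling alone would make them (chi-square over its degrees of freedom at least 7.49).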

Additional observations from a re-analysis of the deposited data

Results flagged for a closer look

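In 70 comparisons of single mice with the rest of their group (each named gene, the total count and the share of counts in members, in both groups), 4 values, from 3 mice, stood apart from the others by Dixon's test, where chance gives about 1 in 20, or 3.5. Control 6 had the lowest Hsp90aa1 level of its group, 569.5 CPM, with the next Control mouse at 692 CPM. EtOH 1 had the highest Hsp90b1 level of its group, 192 CPM, with the next at 166 CPM. The total count of Control 5, 40690223, and that of EtOH 1, 42183029, were above the next in their groups, 32356913 and 33313165.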

How the results depend on the processing

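Over 33 named members and 20 alternatives, 600 of 659 values kept their side of the threshold, 35 lost a call, 24 gained one and 0 calls turned direction. Among the 600, 21 values that were not called changed sign. Hspa12a, Hspa2, Hsph1 and Hspbp1 were called under every alternative run. The number of members called lower, 7, became 11 with DESeq2 and 11 without the deepest library of each group. It became 6 with limma voom, 5 where 1 count in any mouse sufficed and 6 where every mouse needed 10 counts, and ranged from 3 to 13 when single mice were left out (13 without Control 5, 3 without EtOH 4). The number called higher, 2, ranged from 2 to 3. Past a log2 fold change of 0.5 as well, 1 higher member became 0 to 1 without single mice, being 0 without Control 2, 3 or 4 or EtOH 1 or 4. The 2 lower ones became 1 with limma voom, 0 with at least 1 count in any mouse, 1 with at least 10 counts in every mouse, 1 without the deepest libraries, and 0 to 2 without single mice. Members with every EtOH mouse above Control, 1, ranged from 1 to 2, and those below, 0, from 0 to 2. Unscaled CPM, tried after seeing the data, gave 1 and 0. The replicate numbers did not pair the mice (correlations from -0.11 to 0.02). With the replicate number as a block, 12 members were called, 7 of them shared, and 0 lower members passed the fold minimum. The cause of these changes was not tested. Genes under 1 CPM, such as Hspb7, are limited by few counts.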
